A study of Mus musculus with 5 samples.

Results

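The 10 genes described here belong to the Cyp2 family of cytochrome P450 monooxygenases: Cyp2a4, Cyp2a5, Cyp2a12, Cyp2d9, Cyp2d10, Cyp2d22, Cyp2d26, Cyp2f2, Cyp2j5 and Cyp2g1. They were chosen by name, and every probe set that the platform annotation assigned to 1 of them was taken, including one shared between members. This gave 11 probe sets for the 10 genes, out of 18205 genes with a value of their own on the array. Cyp2d22 and Cyp2j5 had 2 probe sets each, 6 genes had 1 of their own, and Cyp2a4 and Cyp2a5 were read by a single shared one.

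Liver RNA from untreated male mice of 10 weeks was hybridised to 5 expression arrays, 1 for each of the inbred strains NZW/LacJ, RIIIS/J, FVB/NJ, BALB/CByJ and C57BL/6J. Each array carried RNA pooled from 3 animals, and the study used these arrays to follow up an expression locus found elsewhere. A pool on 1 array gives no estimate of the spread between animals, so no difference below has a replicate error and none was tested. Values are the authors' normalised intensities on a linear scale, which compare strains within a probe set and not genes with each other, and in whole liver fewer cells of a type and less RNA per cell cannot be told apart. Each array detected 10762 to 11097 genes above the floor defined below, and the median intensity was 8.35 to 8.85.

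P450 enzymes sit in the membrane of the endoplasmic reticulum and insert an atom of oxygen into steroids, fatty acids, drugs and toxins, using electrons passed on by P450 reductase and cytochrome b5. Cyp2a5 is the mouse coumarin hydroxylase and also oxidises nicotine, whereas its close relative Cyp2a4 hydroxylates testosterone and is higher in female than in male liver. Both are known targets of the PAR bZIP factor Dbp, an output of the circadian clock. Cyp2d9 is a testosterone hydroxylase of male liver that depends on growth hormone, Cyp2f2 activates naphthalene in airway club cells and in periportal hepatocytes, Cyp2j5 makes epoxides of arachidonic acid, and Cyp2g1 is best known from the olfactory mucosa.

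Cyp2a4 and Cyp2a5 are near copies, which is why 1 probe set reads both, and the likeness extends upstream of the genes. RefSeq promoters of the GRCm38.p6 build, 250 bases before to 50 after the start, were found for 8 of the 10 members. The 249 upstream bases that align between the pair are shown because they carry the few bases in which these jointly measured genes differ on the reference strain, with Cyp2a12, a neighbour whose values were nearly level, beside them. Capitals mark matches to the CEBP motif (TTGCNNAA) and the TATA box (TATAAA), searched on both strands.

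Cyp2a4, chr7:26306943-26307191, plus strand: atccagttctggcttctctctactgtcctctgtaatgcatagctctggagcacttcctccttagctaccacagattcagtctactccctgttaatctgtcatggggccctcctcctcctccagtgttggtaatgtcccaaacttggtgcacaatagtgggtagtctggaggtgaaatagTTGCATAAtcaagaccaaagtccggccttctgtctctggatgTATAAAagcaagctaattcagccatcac
Cyp2a5, chr7:26835089-26835337, plus strand: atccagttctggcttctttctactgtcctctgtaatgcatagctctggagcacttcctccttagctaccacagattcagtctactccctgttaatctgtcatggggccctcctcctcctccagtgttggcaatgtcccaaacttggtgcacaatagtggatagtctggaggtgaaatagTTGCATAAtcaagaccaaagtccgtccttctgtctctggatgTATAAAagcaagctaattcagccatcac
Cyp2a12, chr7:27028840-27029089, plus strand: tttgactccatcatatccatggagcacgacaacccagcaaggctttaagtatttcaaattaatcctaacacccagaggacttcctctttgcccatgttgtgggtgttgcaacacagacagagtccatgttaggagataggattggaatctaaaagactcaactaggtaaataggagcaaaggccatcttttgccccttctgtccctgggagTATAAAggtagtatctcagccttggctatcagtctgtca

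The Cyp2a4 and Cyp2a5 windows differed at 4 of 249 positions, with Cyp2a4 given first and positions counted from 1 at the first base shown: C18T, T130C, G160A and G204T. Both carried TTGCATAA, which begins 70 bases before the start of Cyp2a4 and 71 before that of Cyp2a5, and none of the 4 differences lies within it or within the TATA box. A CEBP match occurred in 10.8% of all 32851 promoter windows of the table and a TATA box match in 13.6%. Among the 8 members' windows the CEBP motif was in 2, Cyp2a4 and Cyp2a5, and a TATA box match was in 7, all but Cyp2f2. The match read TATAAA in Cyp2a4, Cyp2a5 and Cyp2a12, beginning 28, 29 and 39 bases before the start. In the others it read TTTATA, the motif on the opposite strand. That match began 28 bases before the start in Cyp2d9, 31 in Cyp2d10 and Cyp2d26, and 128 in Cyp2j5. Whether these matches act as TATA boxes was not tested. No exact match to the PAR bZIP sites TTATGTAA or TTACGTAA, the STAT5 site TTCNNNGAA or the HNF4 site CAAAGTCCA was in the 8. Over all windows these occurred in 1.06%, 8.3% and 0.475%. Sites that differ from these letters by a base were not counted. The Cyp2a4 and Cyp2a5 windows both hold caaagtccg, which departs from the HNF4 site in its last base. Read on the opposite strand, their TTGCATAA departs from TTATGTAA in 1 base. Whether any factor binds these stretches was not tested. The Cyp2a12 window aligned with that of Cyp2a4 over 213 positions, of which 131 were identical. The windows of Cyp2d9 and Cyp2d10 aligned over 246 positions with 209 identical.

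The shared probe set of Cyp2a4 and Cyp2a5 was lowest in NZW/LacJ. It read 26467 in C57BL/6J, 30290.4 in BALB/CByJ, 18517 in FVB/NJ, 4537 in NZW/LacJ and 14145 in RIIIS/J. NZW/LacJ stood 3.12-fold below the nearest strain, RIIIS/J, and 6.68-fold below the highest, BALB/CByJ. Against the mean of the other 4 strains it was lower by 2.24 on the log2 scale. The remaining steps in the order were small: BALB/CByJ over C57BL/6J 1.14-fold, C57BL/6J over FVB/NJ 1.43-fold and FVB/NJ over RIIIS/J 1.31-fold. How the signal divides between the steroid hydroxylase gene and the coumarin hydroxylase gene cannot be read from this probe set. Probe sequences were not used here, so for this and every other probe set a strain difference in transcript level and one in hybridisation to the probes cannot be told apart.

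Cyp2g1, which lies next to Cyp2a5 on chromosome 7, was also lowest in NZW/LacJ, and was highest in BALB/CByJ. Its intensity was 29.9 in C57BL/6J, 113 in BALB/CByJ, 23.2 in FVB/NJ, 8.11 in NZW/LacJ and 24.1 in RIIIS/J. The NZW/LacJ value lay under the detection floor of 8.48, set at the 95th percentile of 84 chemosensory receptor probe sets (olfactory, vomeronasal, taste), so folds against it are lower bounds. BALB/CByJ was 3.78-fold above the nearest strain, C57BL/6J, and at least 13.3-fold above NZW/LacJ, which was at least 2.74-fold below FVB/NJ. The values of C57BL/6J, FVB/NJ and RIIIS/J lay within 1.29-fold of each other. Markers of olfactory and airway epithelium, tissues in which Cyp2g1 and Cyp2f2 are abundant, were near the floor: the 4 listed genes summed to 26.4 to 30.6 per array, with Omp and Bpifa1 under the floor on all 5.

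These were the only members apart from every other strain by at least 2-fold, 2 of 11 probe sets, where 12.0% of the 25076 probe sets detected on at least 1 array met that rule. NZW/LacJ was at least 2-fold below the nearest strain in 0.742% of detected probe sets, a rule that both Cyp2a4 and Cyp2a5's probe set and Cyp2g1 met. BALB/CByJ was at least 2-fold above the nearest in 0.77%, which only Cyp2g1 of the members met. The combination seen in both, BALB/CByJ highest and NZW/LacJ lowest, occurred in 4.8% of detected probe sets. Among the members the bright probe set of Cyp2j5 had it as well, with a range of only 1.08-fold.

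**Figure D1:**
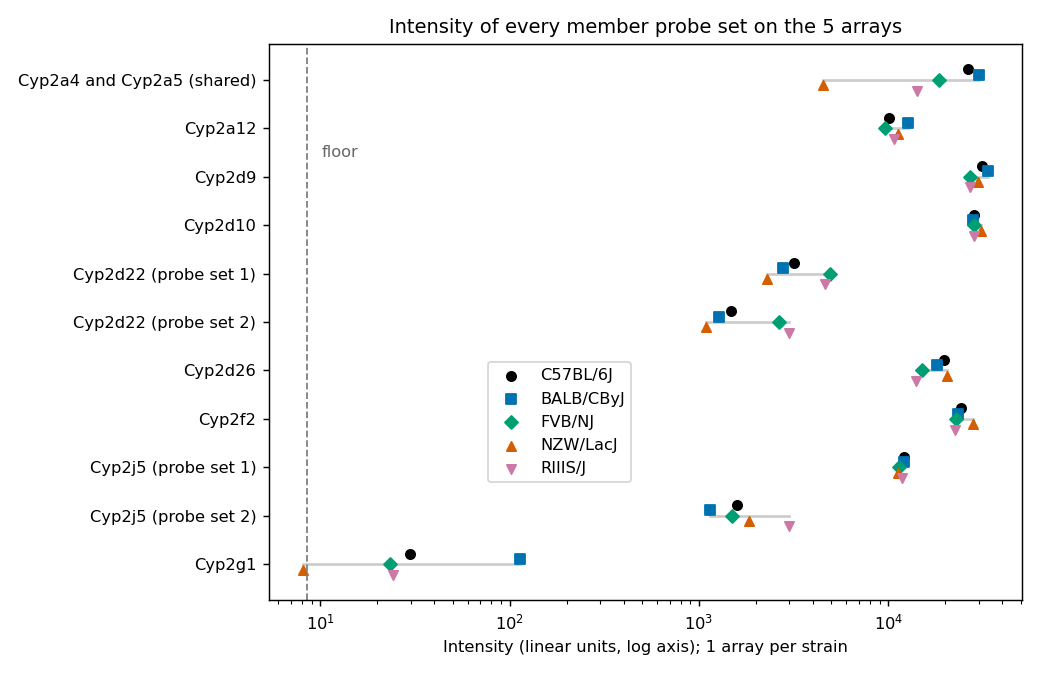
Intensity (horizontal log axis) of the 11 probe sets on the 5 arrays, each symbol being 1 strain and 1 array, with a grey line from the lowest to the highest array and a dashed line at the detection floor of 8.48. The NZW/LacJ triangle sits far left of the others for Cyp2a4 and Cyp2a5 (4537 against 14145 to 30290.4), and under the floor for Cyp2g1, while Cyp2d9, Cyp2d10, Cyp2f2 and Cyp2a12 form tight clusters.

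Cyp2a12, a steroid hydroxylase gene of the same chromosome 7 cluster, did not share the low NZW/LacJ value. It read 10103 in C57BL/6J, 12681 in BALB/CByJ, 9662 in FVB/NJ, 11252 in NZW/LacJ and 10727 in RIIIS/J, a range of 1.31-fold. NZW/LacJ ranked second here, below BALB/CByJ. Cyp2f2, further along the cluster, read 24228 in C57BL/6J, 23260.3 in BALB/CByJ, 22820.3 in FVB/NJ, 28008 in NZW/LacJ and 22474 in RIIIS/J. NZW/LacJ was the highest strain for Cyp2f2, and the whole range was 1.25-fold.

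The Cyp2d genes on chromosome 15 divided into 3 that were nearly level and 1 that was not. Cyp2d9, the male testosterone hydroxylase gene, read 31333 in C57BL/6J, 33709.55 in BALB/CByJ, 26884 in FVB/NJ, 29928 in NZW/LacJ and 27123 in RIIIS/J, a range of 1.25-fold. Cyp2d10 read 28299.9 in C57BL/6J, 27947 in BALB/CByJ, 28218 in FVB/NJ, 30866 in NZW/LacJ and 28299.9 in RIIIS/J, a range of 1.10-fold. The C57BL/6J and RIIIS/J values of Cyp2d10 were exactly equal, as were at least 1 pair of values in 36.4% of detected probe sets. Cyp2d26 read 19698 in C57BL/6J, 18024 in BALB/CByJ, 15000.01 in FVB/NJ, 20337 in NZW/LacJ and 13945 in RIIIS/J, a range of 1.46-fold. FVB/NJ and RIIIS/J were the lowest strains for Cyp2d9 and Cyp2d26, and for Cyp2f2 as well.

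Cyp2d22 was higher in FVB/NJ and RIIIS/J than in each of the other 3 strains, on both of its probe sets. The brighter one read 3165 in C57BL/6J, 2776 in BALB/CByJ, 4900.3 in FVB/NJ, 2282 in NZW/LacJ and 4608 in RIIIS/J. The dimmer one read 1467 in C57BL/6J, 1283 in BALB/CByJ, 2661 in FVB/NJ, 1095 in NZW/LacJ and 2989 in RIIIS/J. The lower of the high pair exceeded the highest of the other strains 1.46-fold on the first and 1.81-fold on the second, and the full ranges were 2.15-fold and 2.73-fold. No strain was 2-fold from its nearest neighbour. The deviations of the strains from their mean differed between the 2 probe sets by at most 0.33 on the log2 scale. Over 4559 genes with at least 2 probe sets detected on all arrays, that difference had a median of 0.17 and a 95th percentile of 0.80. Both probe sets read the same arrays and RNA pools, so this measures agreement between probe sets and not error between arrays or pools. FVB/NJ and RIIIS/J above each of the other 3 strains was the pattern of 4.85% of detected probe sets.

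B cell markers and some red cell and macrophage markers were high on the FVB/NJ array. There 713 of 11885 detected genes were apart on the high side, against 58 to 119 on each other array. Of 6 listed B cell genes 5 were measured and 4 detected; they summed to 19650.3 in FVB/NJ, 227 in RIIIS/J and 48.3 to 301 in the others, with Pax5 under the floor on all arrays. Ighm, the heavy chain gene of IgM, read 13878 in FVB/NJ and was apart on the low side in NZW/LacJ (10.1 against at least 181 elsewhere). Of 6 listed red cell genes 4 were measured and 2 detected, with the probe sets used for Hba-a1 and Epb42 under the floor on all arrays. Probe sets annotated to several genes were left out of the lists, so this gives no level for globin RNA as a whole. Alas2 was highest in NZW/LacJ, at 3444, against 2861 in FVB/NJ and 1032 to 1954 in the rest. Slc4a1, the red cell anion exchanger gene, read 1096 in FVB/NJ against 12.98 to 13.3 elsewhere. The macrophage genes Marco and Timd4 read 172 and 56.5 there, with Marco under the floor and Timd4 at 8.61 to 10.8 elsewhere, although the 7 listed macrophage genes summed to 2252 in FVB/NJ, within the 1761 to 3723 of the other arrays. Slc4a1, Marco and Timd4 were singled out after their values were seen. Listed endothelial genes summed to 2401 in FVB/NJ, within the 2048 to 2524 of the other arrays. Listed stellate cell genes summed to 5656 in FVB/NJ, within 4098 to 6409 elsewhere. For listed cholangiocyte genes FVB/NJ was lowest, at 46.1 against 53.7 to 69.3. Listed hepatocyte genes, 8 of 10 measured, summed to 264486 to 303390.4 with FVB/NJ lowest. The Cyp2d22 values of FVB/NJ and RIIIS/J lay within 1.06-fold of each other on the brighter probe set and 1.12-fold on the dimmer, and the part of these markers in the FVB/NJ value was not tested.

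Cyp2j5, the arachidonic acid epoxygenase gene on chromosome 4, gave different answers on its 2 probe sets. The brighter one was level, at 12059 in C57BL/6J, 12149 in BALB/CByJ, 11369 in FVB/NJ, 11203 in NZW/LacJ and 11789 in RIIIS/J. The dimmer one was highest in RIIIS/J, at 2979.9, against 1588 in C57BL/6J, 1140.2 in BALB/CByJ, 1500.2 in FVB/NJ and 1848 in NZW/LacJ. RIIIS/J was thus 1.61-fold above the nearest strain on one and below BALB/CByJ on the other. The largest gap between the probe sets' deviations was 0.78 on the log2 scale, in RIIIS/J, close to the 95th percentile over all genes, and which probe set follows the transcript was not tested.

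Over all members 5 of 11 probe sets (45.5%) had a range of at least 2-fold, against 30.3% of the detected probe sets. They belonged to 5 of the 10 genes, counting the shared probe set for both Cyp2a4 and Cyp2a5. The other 6 probe sets had ranges of 1.08-fold to 1.46-fold, and the median over all 11 was 1.46-fold beside 1.56-fold for all detected probe sets. Members were mostly among the brightest features, with a mean intensity of at least 10000 for 7 of 11. Of the 474 probe sets that bright, 13.5% had a range of at least 2-fold. Among the 7 bright member probe sets, only the 1 shared by Cyp2a4 and Cyp2a5 had such a range. The range of that probe set exceeded those of 95.3% of all detected probe sets, and Cyp2g1 exceeded 97.8%. Of 26 detected probe sets for other Cyp2 genes, which include the Cyp2b and Cyp2c subfamilies, 17 (65.4%) reached 2-fold.

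**Figure D2:**
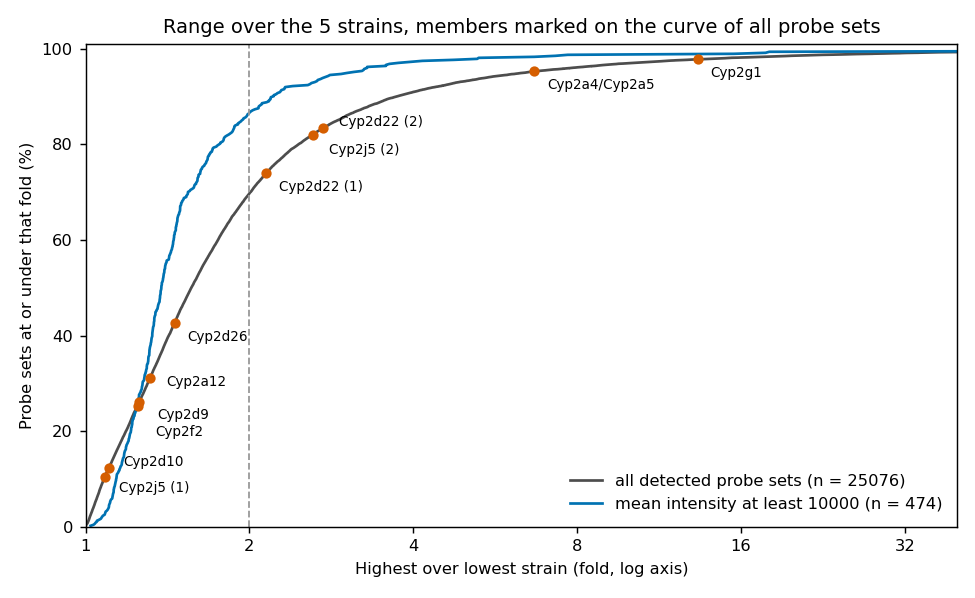
Cumulative share of probe sets (vertical axis, percent) at or under a given fold of the highest over the lowest strain (horizontal log axis), for all 25076 detected probe sets in grey and for the 474 with a mean intensity of at least 10000 in blue; orange points place the 11 member probe sets on the grey curve, with the probe set number in brackets where a gene has 2. Members lie at both ends, from 1.08-fold for Cyp2j5 (1) to 13.3-fold, a lower bound, for Cyp2g1.

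Along chromosome 7 the low NZW/LacJ values were found in genes near, but not at every position of, the Cyp2 cluster. Cyp2b10, a hydroxylase gene induced through the receptor CAR, lies on the other side of Cyp2a4 and read 308 in C57BL/6J, 392 in BALB/CByJ, 925 in FVB/NJ, 62.2 in NZW/LacJ and 387 in RIIIS/J. NZW/LacJ was 4.95-fold below the nearest strain there, and 12.0-fold and 13.4-fold below on 2 further Cyp2b10 probe sets. Cyp2b9, between Cyp2b10 and Cyp2a4, was detected only in FVB/NJ (22.3) and RIIIS/J (61.2). Of the 9 listed other genes of the cluster, 5 had a probe set of their own, and Cyp2b10 and Cyp2b9 were the 2 detected. In map order, then, Cyp2b10, Cyp2a4, Cyp2g1 and Cyp2a5 had NZW/LacJ lowest, with Cyp2a4 and Cyp2a5 read as one, and Cyp2a12 and Cyp2f2 did not.

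In the Cyp2d cluster 3 of 5 listed other genes were detected. Cyp2d13, which RefSeq lists as a transcribed pseudogene, resembled Cyp2d22: its brighter probe set read 1204 in C57BL/6J, 1386 in BALB/CByJ, 4396 in FVB/NJ, 1315 in NZW/LacJ and 3771 in RIIIS/J. Its other probe set was likewise highest in RIIIS/J (886) and FVB/NJ (854), against 159 to 340 (339.8) in the rest. Cyp2d12 and Cyp2d40 had ranges of 1.24-fold and 1.14-fold. Whether probe sets of this cluster also read related transcripts was not tested. In the Cyp2j cluster 3 of 7 were detected. Cyp2j6 was highest in NZW/LacJ on both probe sets, at 927 against 192 to 371 on the brighter, where it was 2.50-fold above the nearest, and at 619 against 166 to 334 on the other. Cyp2j9 was lowest in RIIIS/J, at 41.4 against 76.7 to 142, and Cyp2j11 was above the floor only in NZW/LacJ, at 12.2. In these clusters Cyp2b9, Cyp2d12, Cyp2d13, Cyp2d40, Cyp2j9 and Cyp2j11 were singled out after their values were seen.

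**Figure D3:**
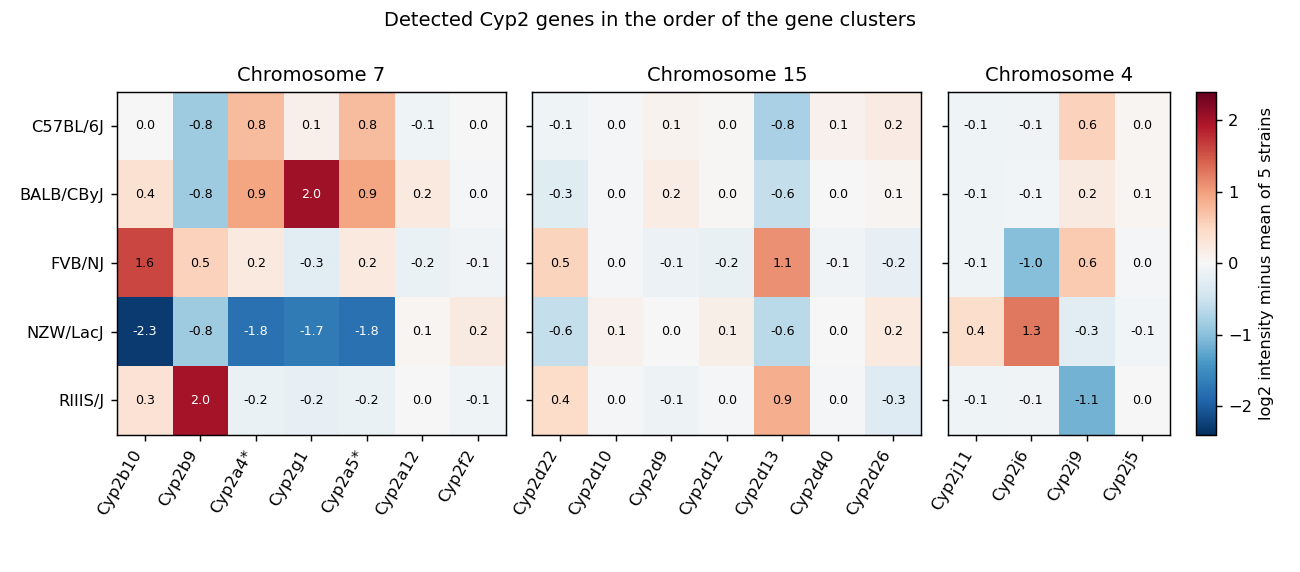
Log2 intensity minus the mean of the 5 strains (colour, and the number in each cell) for the detected Cyp2 genes of chromosomes 7, 15 and 4, placed in their order along each cluster without distance; rows are strains, 1 array each, values below the floor were set at the floor, and the asterisk marks the probe set shared by Cyp2a4 and Cyp2a5, drawn at both genes. The NZW/LacJ row is darkest blue at Cyp2b10, Cyp2a4, Cyp2g1 and Cyp2a5, with Cyp2b9 under the floor there and in 2 other strains, and the FVB/NJ and RIIIS/J rows are red at Cyp2d22 and Cyp2d13.

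Genes that serve or regulate these enzymes were read from lists. Of the 7 electron transfer partners 6 were measured, and their median range was 1.34-fold; Por, the P450 reductase gene, was not analysed here. Cyb5a, the cytochrome b5 gene, read 18757 to 22620.0, and Cyb5r3, a reductase of cytochrome b5, read 6477 in NZW/LacJ against 8718 to 12255 in the other strains. Cyb5r1 was the 1 partner past 2-fold, at 16.0 in RIIIS/J and 26.4 in NZW/LacJ against 79.98 to 105. Among all genes 30.8% reached that range.

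Of 23 listed hepatic regulators of Cyp2 genes 22 were measured, and 11 of the 22 ranged at least 2-fold, beside 30.8% of all detected genes. Their median range was 1.95-fold, beside 1.59-fold for all detected genes, and none of the 22 was 2-fold from its nearest strain. Hnf4a, the nuclear receptor that sustains hepatocyte gene expression, read 3203 to 3591. Nr1i3, which encodes the receptor CAR, read 969 in C57BL/6J, 1596 in BALB/CByJ, 1539 in FVB/NJ, 858 in NZW/LacJ and 775 in RIIIS/J. Nfe2l2, which encodes the stress factor NRF2, a known activator of Cyp2a5, read 982 in C57BL/6J, 1063 in BALB/CByJ, 917 in FVB/NJ, 601 in NZW/LacJ and 904 in RIIIS/J. It had the 5 strains in the same order as the Cyp2a4 and Cyp2a5 probe set, the only 1 of the 22 measured regulators to do so. Egfr, an epidermal growth factor receptor gene (7177 in BALB/CByJ to 3254 in NZW/LacJ), was the only 1 of 14 measured male-biased genes with that order. No gene of the other lists searched had it, among them 13 clock factors, 13 female-biased and 15 pericentral genes. That order was shown by 128 of the 10322 genes detected on all arrays (1.24%). The range of Nfe2l2 was 1.77-fold, and its part in the Cyp2a values was not tested. Stat5b, which relays growth hormone signals, read 244 to 348.

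Clock factors varied widely between these arrays. Of 13 listed PAR bZIP and clock genes 12 ranged at least 2-fold, beside 30.8% of all detected genes. In RIIIS/J 4 were apart on the low side and 1 on the high side. Over the 11885 detected genes those counts were 205 and 119 in RIIIS/J. Dbp, which binds the Cyp2a4 and Cyp2a5 promoters, read 6439 in C57BL/6J, 8951 in BALB/CByJ, 4939.5 in FVB/NJ, 1023 in NZW/LacJ and 75.5 in RIIIS/J. Its relative Tef read 1293 in C57BL/6J, 1530.3 in BALB/CByJ, 1387 in FVB/NJ, 301 in NZW/LacJ and 133 in RIIIS/J. Dbp shared with Cyp2a4 and Cyp2a5 the order of BALB/CByJ, C57BL/6J and FVB/NJ from the top, but its lowest strain was RIIIS/J, where the shared probe set was 3.12-fold above NZW/LacJ. Dbp, Tef, Nr1i3, Hnf4a, Stat5b, Nfe2l2, Cyb5a, Cyb5r1 and Cyb5r3 were singled out after their values were seen. The sources used here do not give the hour of collection, and the part of the clock in the Cyp2a values was not tested.

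**Figure D4:**
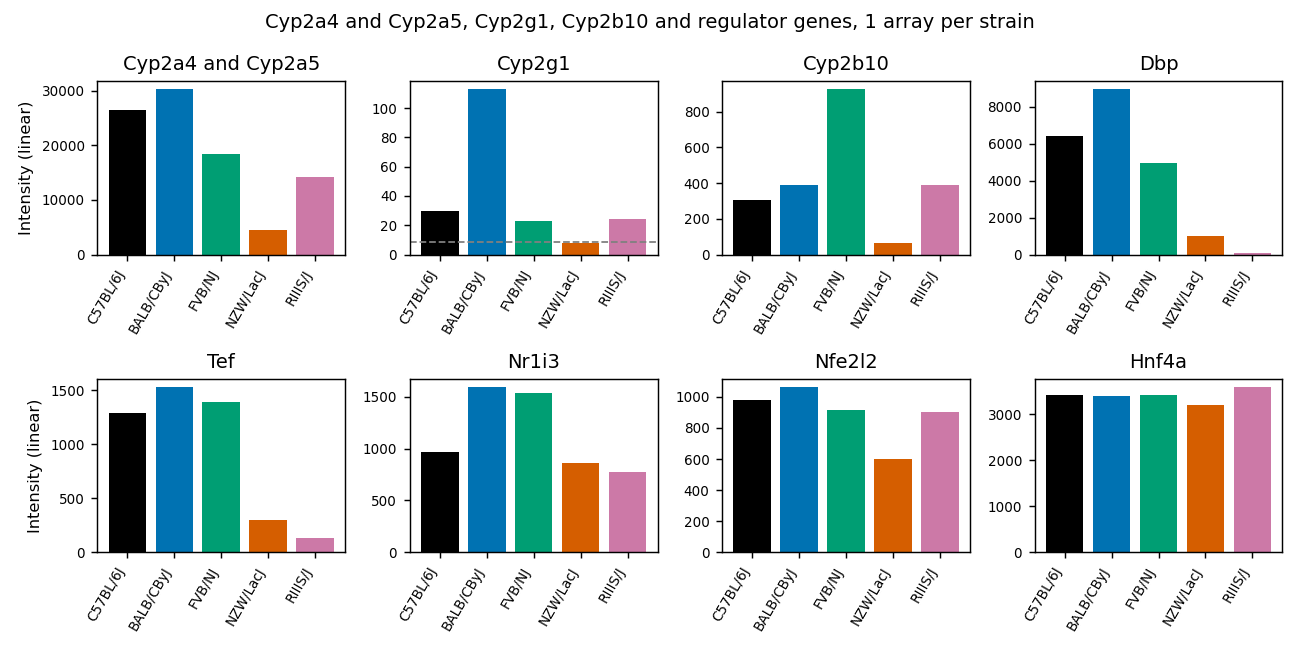
Intensity (vertical linear axes from 0, separate for each panel) of the Cyp2a4 and Cyp2a5 probe set, Cyp2g1, Cyp2b10, Dbp, Tef, Nr1i3, Nfe2l2 and Hnf4a in the 5 strains, 1 bar per array; the dashed line in the Cyp2g1 panel is the detection floor. NZW/LacJ has the shortest bar for Cyp2a4 and Cyp2a5, Cyp2g1, Cyp2b10 and Nfe2l2, RIIIS/J has it for Dbp, Tef and Nr1i3, and Hnf4a is nearly level.

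Because Cyp2a4 is a female-biased and Cyp2d9 a male-biased gene in mouse liver, both classes were set beside them. Of 18 listed male-biased genes 14 were measured and 9 ranged at least 2-fold, beside 30.8% of all detected genes. Apart on the high side in NZW/LacJ were 4 of the 14, beside 92 of the 11885 detected genes. They were Susd4 (1659 against 41.3 to 435), Serpina12 (11999 against 489.9 to 3525), Sult5a1 (894 against 44.97 to 398) and Ugt2b38 (3468 against 185 to 1056). The first 3 of these were also apart on the low side in BALB/CByJ, beside 52 of the 11885. BALB/CByJ was the highest strain for 4 of the 14, beside 2581 of the 11885. Among those 4 were Hsd3b5 (16434) and Cyp7b1 (29104), both singled out after their values were seen. The list's median difference of NZW/LacJ from the mean of the other strains was 0.75 on the log2 scale, beside -0.02 for all detected genes, while Cyp2d9 differed over the strains by no more than 0.33. Of 18 female-biased genes 10 were detected and their NZW/LacJ median was -0.74. That median rests partly on values at the floor, since Cyp2b9, Cyp17a1, Prom1 and Abcd2 were under it in NZW/LacJ. Cyp2b9, Cyp17a1 and Prom1 were under the floor in BALB/CByJ too and highest in RIIIS/J. For Cyp17a1 both strains thus differed from the mean of the others by -0.86. Fmo2, a flavin monooxygenase gene, was highest in BALB/CByJ (843) and lowest in NZW/LacJ (16.0), and Abcd2, a peroxisomal transporter gene, read 119 in BALB/CByJ and was under the floor in NZW/LacJ and RIIIS/J. Acot3, an acyl-CoA thioesterase gene, was lowest in NZW/LacJ at 11.8 against 42.2 to 718. For BALB/CByJ the list medians were near 0, at -0.02 for male-biased and -0.10 for female-biased genes.

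Genes of the liver zones were read in the same way. Of 12 measured periportal genes, the zone of Cyp2f2, Etnppl was apart on the low side in NZW/LacJ (1913 against 4270.3 to 9336), and the list's NZW/LacJ median was -0.04. Of 15 measured pericentral genes, the zone of Cyp2a5, Slc1a2 was apart there (166 against 414 to 1071), and the median was -0.15. NZW/LacJ was the lowest strain for 6 of the 15 and the highest for 0, beside 2007 and 2006 of the 11885 detected genes. Apart from Slc1a2 the steps were small: 1.02-fold below the nearest strain for Glul, 1.03-fold for Cyp2e1 and 1.31-fold to 1.42-fold for Aldh1a1, Ahr and Oat. Ties, such as strains at the floor, were credited to the first strain in array order, so the counts over all genes are not fully comparable.

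Profiles most like those of the members were sought among the 10322 genes detected on all arrays, by the root mean square difference of centred log2 values over the 5 strains. Closest to Cyp2a4 and Cyp2a5 was Ank3, an ankyrin gene, at 0.096, which read 401 in C57BL/6J, 411 in BALB/CByJ, 237 in FVB/NJ, 68.9 in NZW/LacJ and 195 in RIIIS/J. Rdh9, a retinol dehydrogenase gene, followed at 0.24 and Nfe2l1, a relative of Nfe2l2, at 0.25. Closest to Cyp2g1 were Nrg4 (0.31), a growth factor gene, Rtf2 (0.37) and Stk35 (0.42), of which Nrg4 read 77.2 in BALB/CByJ and 11.2 in NZW/LacJ. The NZW/LacJ value of Cyp2g1 entered at the floor, so these distances and their order rest on a bound. Closest to the brighter Cyp2d22 probe set were Brd2 (0.11), a chromatin reader gene, Adam17 (0.11), a sheddase gene, and D16Ertd472e (0.14). With 5 points and this many genes searched, such likeness is a description of these arrays only.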

How the data were processed

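The deposited table holds intensity values on a linear scale for 45101 probe sets, which the authors obtained using the tools GCOS and GCRMA, both named per the submitters' processing notes; their versions are not given in the sources used here. Probe sets were named from the platform annotation, with symbols updated through the mouse RefSeq table, which 34741 of 34957 probe sets with 1 gene matched. Intensities were taken to log2 after raising values under the floor to it. Each gene other than a member took its probe set with the highest mean, among probe sets annotated to 1 gene. A probe set was called apart when 1 strain was at least 2-fold above or below the nearest other strain. Members, lists, and the patterns whose shares are given were chosen with earlier results of these data known, and the intensity limit of 10000 was set after seeing the values. All members and their probe sets are named; list genes are named where apart in NZW/LacJ or BALB/CByJ, at most 6 a list, and for likeness the 3 closest genes. The number of arrays, 1 per strain, limits the precision. The procedure was tested on simulated data. Python 3.11.15, numpy 2.4.6, pandas 2.3.3 and matplotlib 3.10.9 were used.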

Additional observations from a re-analysis of the deposited data

How the results depend on the processing

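The count of 5 member probe sets with a range of at least 2-fold was 2 at a 4-fold threshold and 4 or 5 under every other alternative run: a floor at the 99th percentile (27.95), no floor, quantile normalisation, probe sets named without a suffix for several transcripts or genes, a 1.5-fold threshold and each array left out. The count of 2 probe sets apart from the nearest strain was 0 at 4-fold and 1 of 8 when only the probe sets without such a suffix were kept, since the shared Cyp2a4 and Cyp2a5 probe set is then gone. Leaving out an array gave 1 to 3, with 1 without NZW/LacJ and 3 without FVB/NJ. Of 40 values of single probe sets under an alternative, 38 kept their direction and their side of 2-fold. The exceptions were the low NZW/LacJ value of Cyp2g1, which became 0 with the higher floor because FVB/NJ and RIIIS/J then lay under it too, and the higher RIIIS/J value of Cyp2j5, 0.69 on the log2 scale on the dimmer probe set and -0.043 on the other. No paired analysis was possible because there was a single array for every strain.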
